A study of Rattus norvegicus with 2 samples.

Results

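Cycling vascular endothelial cells were the cells of blood vessels that carried RNA of dividing cells in the muscle of an SD rat and of a chimera made of rat and mouse cells. They were chosen by detected genes. A barcode (the RNA of 1 droplet, nominally 1 cell) had to hold at least 3 of the 7 endothelial genes Pecam1, Cdh5, Flt1, Kdr, Emcn, Gpihbp1 and Ptprb and at least 2 of the 5 cycle genes Top2a, Mki67, Cdk1, Ube2c and Nusap1. It also had to hold none of Ptprc, Pdgfra and Prox1, which mark blood, mesenchymal and lymphatic cells. Of 21154 barcodes past the quality filter, 146 met these terms. They comprised 82 mouse cells and 48 rat cells of the chimera and 16 cells of the SD rat. The rule used measured values, so the levels of its own genes below are a description and nothing rests on them.

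The study made the chimera by placing mouse induced pluripotent stem cells (iPSCs) in an SD rat embryo. The iPSCs carried a Pax7-nGFP reporter and the Dmd mdx allele, in which the study had edited the dystrophin mutation. The chimera therefore held rat cells of the host embryo and mouse cells of the iPSC line, and the control was an SD rat without mouse cells. Cells were released from the body's skeletal muscle with collagenase, a dye for viability served to sort those alive, and each animal gave 1 droplet-based 3' library of unique molecular identifiers (UMIs), each standing for 1 captured transcript. Ages of the animals are not given in the sources used here. With 1 library an animal there were no replicates, so no test was made. The 95% intervals below cover counting error only and not differences between animals or libraries. Those of levels and ratios, from summed UMIs, also leave out differences between cells.

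Endothelial cells line vessels, and in resting adult muscle most of them are out of the cell cycle. A cell that divides first loads the MCM helicase onto its origins, then copies its DNA with polymerases and newly made nucleotides, and then builds a spindle that pulls the chromosomes apart. RNAs of these steps come in waves: cyclin E and replication genes before and during DNA synthesis, cyclin A later, and cyclin B and the kinetochore, kinesin and cytokinesis genes around mitosis. Growth of new vessels is led by tip cells, and the stalk cells behind them divide.

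The chimera library held 118872850 UMIs in 13299 barcodes and the SD rat library 70957559 UMIs in 10117 barcodes. The libraries shared 43 barcode sequences, and the barcode of 1 cycling endothelial cell was also found in the other library, where it was not such a cell. Cycling endothelial cells were deep. Mouse cells had a median of 9719 UMIs (1304 to 123215), rat cells of the chimera 11133.5 (2142 to 53907) and SD rat cells 9955 (1830 to 22962). Endothelial barcodes with none of the 5 cycle genes, called non-cycling below and used as the comparison group, had medians of 5712, 4441 and 2984 UMIs. A deeper barcode has more chances to show a gene, so shares are given at each barcode's own depth and after every barcode was thinned to 2000 UMIs.

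The name of these cells was set beside genes that the rule did not use. Of 20 further vascular endothelial genes, 20 passed the filter of a mean of 10 UMIs per 1000000 (CPM) in mouse cells, 19 in rat cells and 19 in the SD rat, and none of the genes measured was at 0 in the cycling cells. Summed UMIs can include RNA from outside a cell, so a level above 0 alone does not settle the name. Cldn5, of this list, was at 739 CPM in mouse cycling cells and 2.28 CPM in mouse barcodes with no endothelial gene. Such a comparison is not given for the other genes of the list. Tie1, a receptor of endothelial cells, stood at 201 CPM in cycling and 172 in non-cycling mouse cells, at 153 and 167 CPM in rat cells and at 147 and 241 CPM in the SD rat. Erg, an endothelial transcription factor, stood at 267 and 276 CPM, at 153 and 180 CPM and at 276 and 228 CPM in the same order. Of the whole list, 7 of 20 genes were higher in cycling than in non-cycling mouse cells and 4 of 19 in rat cells. In the SD rat it was 1 of 19, which was Erg, and the interval lay below no change for 11 of the 19. Markers of other cell types in these barcodes are described further on, and they differed among the 3 populations.

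Cycling barcodes made up 82 of 1014 mouse endothelial barcodes of the chimera (8.09%, 95% exact Clopper-Pearson interval 6.48 to 9.94). They made up 48 of 763 rat endothelial barcodes in the same library (6.29%, 4.67 to 8.25) and 16 of 1254 in the SD rat (1.28%, 0.731 to 2.06). The intervals of the chimera's mouse and rat cells overlapped, and both lay above that of the SD rat. After thinning to 2000 UMIs, with both terms of the rule applied to the thinned counts, the shares were 52 of 913 (5.70%, 4.28 to 7.40), 28 of 629 (4.45%, 2.98 to 6.37) and 6 of 820 (0.732%, 0.269 to 1.59). The order of the populations was the same at equal depth. With stricter limits on the share of UMIs from each species (10% and 90%), the order of mouse and rat turned, at 74 of 822 mouse (9.0%) and 9 of 59 rat barcodes (15.3%). Rat cells of the chimera had medians of 12.8% (cycling) and 14.4% (non-cycling) of their UMIs on mouse genes. The 10% limit thus dropped most of them, and the turned order rested on 9 rat barcodes. Of the endothelial barcodes at own depth, 900 mouse, 655 rat and 871 SD rat barcodes held 2000 UMIs. The chimera and the SD rat differed in animal, library and reference at once, and these cannot be told apart.

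**Figure D1:**
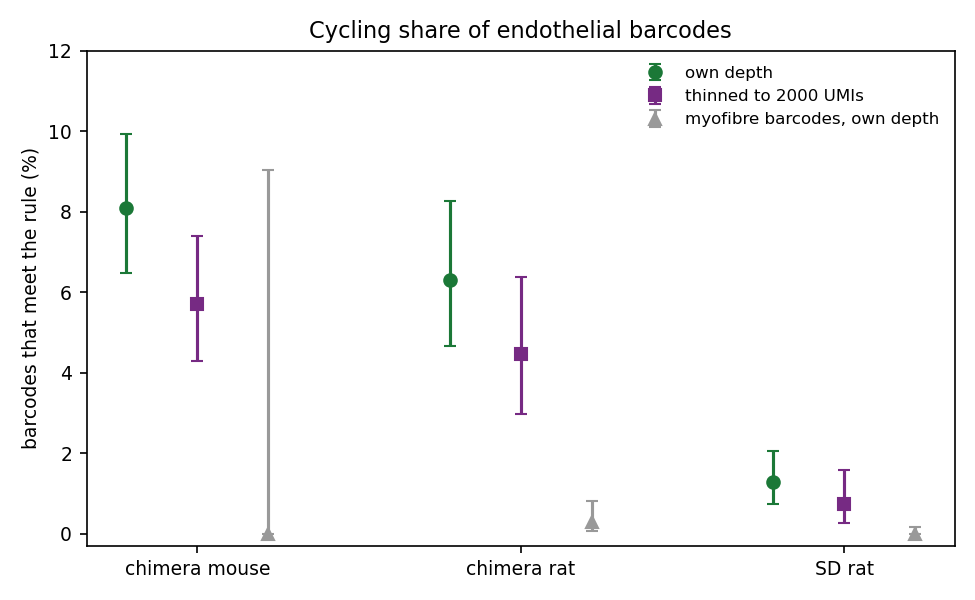
Share of endothelial barcodes that met the cycling rule (y axis, percent) in chimera mouse, chimera rat and SD rat cells, at own depth (circles) and after thinning to 2000 UMIs (squares), with the share of myofibre barcodes that met the whole rule (triangles, out of all myofibre barcodes and not of endothelial ones); bars are exact 95% intervals. At both depths the chimera's mouse and rat cells overlapped, and the SD rat lay below both (1.28% against 8.09% and 6.29% at own depth).

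Free RNA in the droplets can give a barcode UMIs of genes that its cell does not express. Myofibre barcodes, with at least 5% of their UMIs on muscle fibre genes, were counted as a background for this. The whole rule was met by 0 of 39 mouse myofibre barcodes (interval up to 9.03%), 3 of 1070 rat myofibre barcodes of the chimera (0.280%) and 0 of 2351 in the SD rat (up to 0.157%). Those 3 barcodes are themselves among the 48 rat cycling endothelial cells, so the whole-rule counts are no outside background. Mouse and SD rat cycling cells had at most 2.87% and 3.53% of their UMIs on these genes. Both counts of 0 thus followed from the 5% limit. The myofibre barcodes had median depths of 3542, 5935 and 3104 UMIs, and the 39 mouse barcodes were too few to bound the background below the mouse share. At least 3 endothelial genes were found in 3 of 39, 43 of 1070 and 181 of 2351 myofibre barcodes, before the excluded genes were applied. The whole-rule shares are over all myofibre barcodes, so they are not like the cycling shares of endothelial barcodes. At least 2 cycle genes, without the endothelial term, were found in 0 of 39, 10 of 1070 (0.935%) and 12 of 2351 (0.510%). The SD rat share of endothelial barcodes with 2 cycle genes was thus 1.28% beside a background of 0.510%, with intervals of 0.731 to 2.06 and 0.264 to 0.890 that overlapped. The thinned SD rat share of 0.732% rested on 6 barcodes. Asking for 3 cycle genes in place of 2 left 56 of 1014 mouse (5.52%), 37 of 763 rat (4.85%) and 7 of 1254 SD rat barcodes (0.558%).

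Within the chimera, 82 of the 130 cycling endothelial barcodes were mouse (63.1%, 54.2 to 71.4). The mouse share was 827 of 1483 among non-cycling endothelial barcodes (55.8%, 53.2 to 58.3) and 105 of 164 among those with exactly 1 cycle gene (64.0%, 56.2 to 71.4). By the number of cycle genes detected, the mouse share was 26 of 37 at 2 genes, 17 of 29 at 3, 9 of 16 at 4 and 30 of 48 at 5. The interval for the cycling barcodes overlapped that of the non-cycling ones, so a difference in mouse share was not detectable at this number of cells. The share leaned on how species were told apart. A cell was rat with at most 20% and mouse with at least 80% of its UMIs on mouse genes, and with limits of 10% and 90% only 59 rat endothelial barcodes were left, 9 of them cycling, and 74 of 83 cycling barcodes were mouse (89.2%).

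The genes that chose the cells were read from the same species as the rest of each cell. In mouse cycling cells, 1977 of 1978 UMIs of the 5 cycle genes (99.9%) and 5974 of 6034 UMIs of the 7 endothelial genes (99%) fell on mouse genes. In rat cycling cells of the chimera, 12 of 744 cycle UMIs (1.61%) and 42 of 2596 endothelial UMIs (1.62%) did. A further 34 of 554 endothelial barcodes with between 20% and 80% of their UMIs on mouse genes met the cycle term (6.14%, 4.29 to 8.47) and were not counted as cycling endothelial cells here. In 14 of these 34 both gene sets were mouse and in 6 both were rat. In 6 the endothelial UMIs were mouse and the cycle UMIs rat, and the opposite pattern was found in 0. The other 8 had at least 1 set split between the species.

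Endothelial cells were a larger part of dividing mouse cells than of dividing rat cells, and also of all mouse than of all rat barcodes. Of all mouse barcodes with at least 2 cycle genes, 82 of 167 were cycling endothelial cells (49.1%, 41.3 to 56.9), while endothelial barcodes were 1014 of 1861 of all mouse barcodes (54.5%). Of rat cycling barcodes in the chimera, 48 of 316 were endothelial (15.2%, 11.4 to 19.6), beside 9.0% of all rat barcodes. In the SD rat, 16 of 180 were endothelial (8.89%, 5.17 to 14.0), beside 14.0% of all barcodes. The intervals of the rat populations overlapped, and with species limits of 10% and 90% the rat share in the chimera was 5.17%. Cycling barcodes with none of the 7 endothelial genes numbered 33, 147 and 102, and they serve below as the other dividing cells.

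The 5 cycle genes of the rule are given as a description. Top2a, the topoisomerase that untangles replicated chromosomes, was at 557 CPM in mouse cells, 230 CPM in rat cells of the chimera and 300 CPM in the SD rat. Mki67, which coats mitotic chromosomes, was at 306, 200 and 235 CPM. Cdk1, the kinase that drives entry into mitosis, was at 259, 230 and 94.1 CPM. Ube2c, an enzyme that marks mitotic cyclins for destruction, was at 377, 308 and 112 CPM, and Nusap1, a spindle protein, at 150, 150 and 88.2 CPM. In the SD rat 1 cell held 31.4% of the Top2a UMIs and 1 cell held 35.0% of those of Mki67.

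Cells just inside and just outside the threshold differed in mitotic RNA, while their depth differed in opposite directions among the populations. All 5 cycle genes were found in 30 of 82 mouse cells, 18 of 48 rat cells of the chimera and 2 of 16 SD rat cells, and exactly 2 in 26, 11 and 9 cells. Endothelial barcodes with exactly 1 cycle gene, which the rule left out, numbered 105, 59 and 59. Median depth was 6162, 8700 and 9478 UMIs in cells with 2 cycle genes and 9294, 7192 and 4586 UMIs in barcodes with 1. Mouse cells just inside the rule were thus shallower than those just outside, and rat cells of both animals deeper. The median of mitosis RNA, defined below, was 9.69, 17.8 and 11.0 UMIs per 10000 in cells with 2 cycle genes, and 2.81, 2.31 and 2.98 in barcodes with 1. All 7 endothelial genes were found in 49, 28 and 10 of the cycling cells.

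Promoters of the cycle genes are shown because they hold short elements known for the timing of such genes. That these genes were read together in single cells was set by the rule and is no finding. The cell cycle homology region (CHR, searched as TTTGAA and TTCGAA) and the CCAAT box are known from promoters active around mitosis, and the E2F site (searched as TTTCGCGC and TTTGGCGC) from promoters of replication genes. Sequences are the 250 bases before the start site in the RefSeq table of rat build GRCr8, read 5' to 3' on the gene's strand, with each CHR and CCAAT match of either strand in capitals. Top2a lies at chr10:84473094-84473343 on the minus strand, Mki67 at chr1:199952594-199952843 on the minus strand and Cdk1 at chr20:19265043-19265292 on the plus strand.
Top2a: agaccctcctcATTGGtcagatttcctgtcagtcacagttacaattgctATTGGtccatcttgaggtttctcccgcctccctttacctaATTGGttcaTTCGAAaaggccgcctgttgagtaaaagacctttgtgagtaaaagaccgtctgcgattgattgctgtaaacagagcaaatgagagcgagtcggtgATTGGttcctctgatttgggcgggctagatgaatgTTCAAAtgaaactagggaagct
Mki67: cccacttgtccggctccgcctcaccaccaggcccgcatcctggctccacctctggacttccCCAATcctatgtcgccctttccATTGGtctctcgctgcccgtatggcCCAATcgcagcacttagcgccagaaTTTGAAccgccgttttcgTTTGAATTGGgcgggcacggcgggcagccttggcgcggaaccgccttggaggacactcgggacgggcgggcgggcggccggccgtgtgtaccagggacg
Cdk1: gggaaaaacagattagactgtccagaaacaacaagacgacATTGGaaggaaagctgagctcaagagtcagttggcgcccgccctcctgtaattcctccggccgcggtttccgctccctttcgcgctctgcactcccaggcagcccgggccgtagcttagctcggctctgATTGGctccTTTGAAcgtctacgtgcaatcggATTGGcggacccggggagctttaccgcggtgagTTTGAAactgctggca

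In Top2a the CHR letters began 152 and 22 bases before the start site, in Mki67 117 and 99 bases before it, and in Cdk1 72 and 16 bases before it. The second CHR of Mki67 overlapped a CCAAT box by 1 base, TTCGAA reads the same on both strands, and Cdk1 alone of the 3 held an E2F match, 133 bases before its start. Over windows from 250 bases before to 50 after the start, a CHR was found in 33 of the 42 mitosis genes with an entry (78.6%) and in 19.5% of all 27457 rat promoters of that length. It was in 3 of 13 licensing genes (23.1%) and 4 of 21 DNA synthesis genes (19.0%). A CCAAT box was found in 31 of the 42 mitosis genes (73.8%), 10 of 13 licensing genes (76.9%), 11 of 21 DNA synthesis genes (52.4%) and 37.7% of all promoters. An E2F match was found in 8 of 13 licensing genes (61.5%), 7 of 21 DNA synthesis genes (33.3%), 0 of 42 mitosis genes and 0.841% of all promoters. Of 8 capillary genes with an entry 0 held a CHR, and of 13 vascular genes 1 did. A match is a description of letters and not of a bound site.

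Each cell was then described by 2 sums over genes that the rule did not use. Replication RNA summed 39 genes of origin licensing and DNA synthesis, and mitosis RNA summed 48 genes of the spindle, kinetochore and cytokinesis, both per 10000 UMIs of the cell. Mouse cycling cells had a median of 19.2 for replication (0 to 95.2) and 44.0 for mitosis (0 to 174), against 4.50 and 1.57 in non-cycling cells. Rat cycling cells of the chimera had 16.3 (2.75 to 79.6) and 36.3 (1.07 to 211), against 5.54 and 1.99. SD rat cycling cells had 11.5 (1.55 to 42.1) and 24.5 (1.66 to 157), against 5.41 and 2.15. The ranges of cycling and non-cycling barcodes overlapped in every population, since non-cycling barcodes reached 41.6, 39.8 and 37.2 for replication and 47.5, 62.4 and 42.4 for mitosis.

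More cells held more mitosis than replication RNA than the reverse. Mitosis UMIs outnumbered replication UMIs in 49 of 82 mouse cells, 32 of 48 rat cells of the chimera and 10 of 16 SD rat cells, and replication UMIs outnumbered mitosis UMIs in 31, 14 and 6. Among non-cycling barcodes the counts ran the other way, with 128 against 519, 104 against 423 and 202 against 655. Other dividing cells, with no endothelial gene, had median mitosis sums of 28.7, 56.1 and 64.5 and replication sums of 18.3, 20.2 and 18.1. In mouse cells the endothelial median for mitosis was thus the higher of the pair, and in both rat populations the lower. RNAs of Top2a, Mki67, Cdk1, Ube2c and Nusap1 are known to peak late in the cycle, so the balance of the sums in cells chosen by them is not a census of cycle phases.

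**Figure D2:**
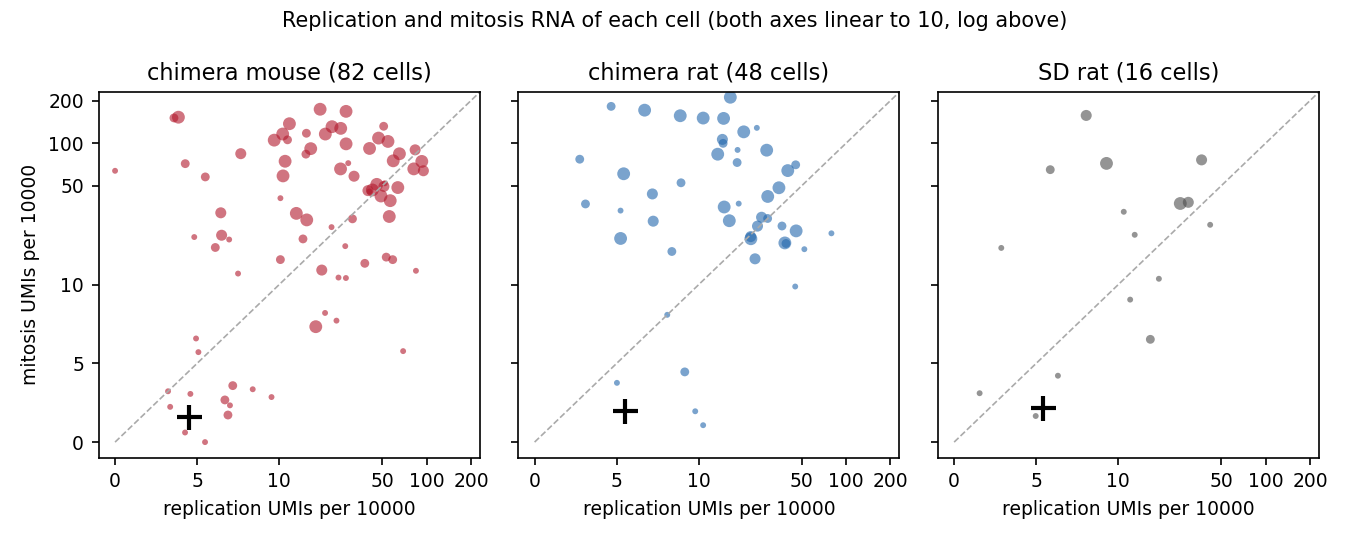
Replication UMIs (x axis) and mitosis UMIs (y axis) per 10000 UMIs of each cycling endothelial cell, in chimera mouse, chimera rat and SD rat cells; larger points held more of the 5 cycle genes, the cross is the median of non-cycling cells and the dashed line marks equal sums, on axes that are linear to 10 and logarithmic above. Points above the line, with more mitosis RNA, numbered 49 of 82, 32 of 48 and 10 of 16.

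Cdc45, a subunit of the replicative helicase, was left out of the replication sum after its values were seen. Its rat gene was at 552 CPM in non-cycling rat endothelial cells of the chimera and at 1038 CPM in those of the SD rat, beside 483 and 1035 CPM in cycling cells. In barcodes with no endothelial gene it was at 3.78 and 7.15 CPM. In mouse cells it was at 45.8 CPM in cycling and 6.42 CPM in non-cycling cells. The rat gene thus followed endothelial cells and not division in these files. The rat table has no row for its neighbour Cldn5, a tight junction gene that was at 739 and 803 CPM in mouse endothelial cells. RefSeq lists no gene in the 2191 bases between them in GRCr8. The cause was not tested. With Cdc45 counted, the median replication sums were 19.8, 20.9 and 22.3, and mitosis UMIs outnumbered replication UMIs in 48, 30 and 8 cells.

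Cyclins, which the sums do not contain, differed between cells with more replication RNA and cells with more mitosis RNA. In mouse cells Ccnb1, a cyclin of mitosis, was at 6.74 CPM on the replication side (1.39 to 19.7, 3 UMIs in 31 cells) and 84.8 CPM on the mitosis side (65.2 to 109, 49 cells). Ccnb2 was at 47.2 (29.2 to 72.1) and 191 CPM (161 to 225), and Ccna2, the cyclin of late replication and early mitosis, at 67.4 (45.5 to 96.2) and 140 CPM (114 to 170). The intervals of these 3 cyclins did not overlap. Ccnd2, a cyclin of growth factor signals, was the other way, at 229 (187 to 278) and 80.8 CPM (61.6 to 104). Ccnd1 was at 312 and 289 CPM, Ccne1, which starts replication, at 24.7 and 8.08 CPM, and Ccne2 at 44.9 and 31.0 CPM, with intervals that overlapped in each case.

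Rat cells of the chimera, 14 on the replication side and 32 on the mitosis side, had Ccnb1 at 4.30 and 176 CPM. Ccnb2 was at 0 and 76.2 CPM, and Ccna2 at 8.60 and 59.6 CPM. Again the 3 late cyclins did not overlap. Ccnd1 was at 236 (178 to 308) and 150 CPM (115 to 192) and Ccnd2 at 150 (105 to 209) and 78.6 CPM (54.1 to 110), with intervals that overlapped slightly for both. In the SD rat, with 6 and 10 cells, Ccnb1 was at 0 (up to 56.4) and 143 CPM (80.2 to 236), and Ccnb2 at 15.3 and 57.3 CPM with overlapping intervals. Ccna2 was there at 30.6 and 0 CPM, Ccnd1 at 45.9 and 134 CPM and Ccnd2 at 30.6 and 28.6 CPM, also with intervals that overlapped. Tubb4b, a tubulin of the spindle, was at 288 and 572 CPM in mouse cells, 525 and 936 CPM in rat cells of the chimera and 153 and 554 CPM in the SD rat. Cdkn1b, an inhibitor of cyclin-dependent kinases, was at 29.2 (15.6 to 50.0) and 82.1 CPM (62.8 to 105) in mouse cells and at 51.6 (26.7 to 90.1) and 124 CPM (92.5 to 162) in rat cells of the chimera, and at 61.2 and 66.8 CPM in the SD rat. Cdkn1a and Cdkn1c, also inhibitors, went the other way in mouse cells. Cdkn1a was there at 748 (670 to 833) and 544 CPM (492 to 600), and Cdkn1c at 103 (75.7 to 138) and 51.2 CPM (36.2 to 70.2). In rat cells of the chimera they were at 279 and 226 CPM and at 47.3 and 33.4 CPM, with overlapping intervals. In the SD rat Cdkn1a was at 138 and 124 CPM with overlapping intervals, and Cdkn1c at 30.6 and 267 CPM with intervals apart.

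**Figure D3:**
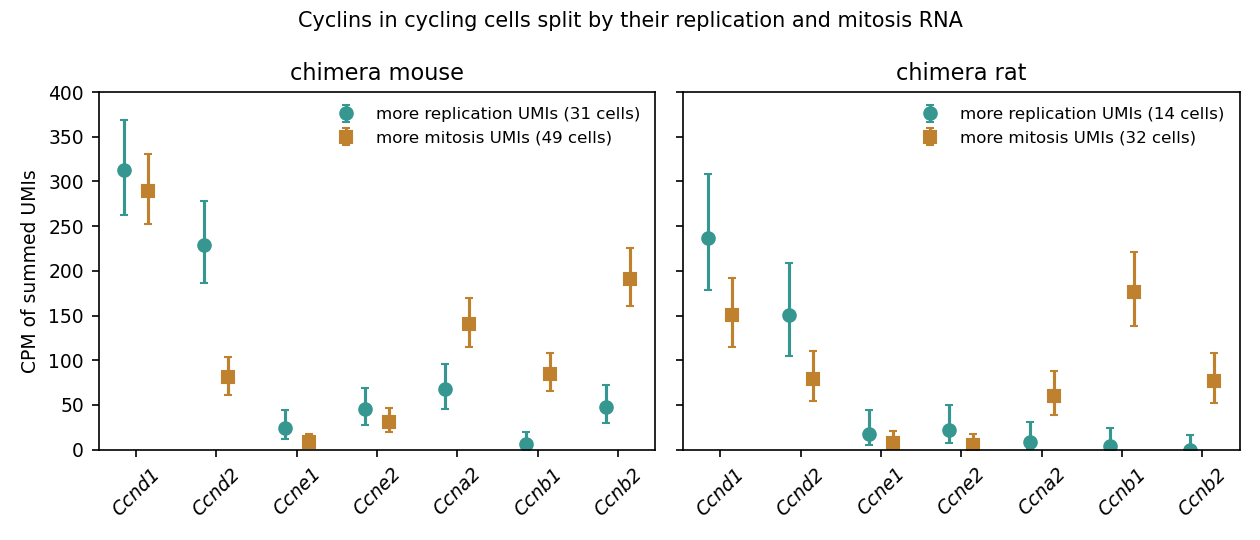
CPM of 7 cyclins (y axis) in cycling endothelial cells with more replication UMIs (circles) and with more mitosis UMIs (squares), for chimera mouse (31 and 49 cells) and chimera rat cells (14 and 32 cells); bars are exact 95% Poisson intervals. Ccnb1 and Ccnb2 were higher on the mitosis side in both species (84.8 against 6.74 CPM for Ccnb1 in mouse cells), and Ccnd2 was lower, with intervals that overlapped in rat cells.

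Summed over cells, cycling and non-cycling endothelial cells were compared as the log2 ratio of CPM with 10 CPM added to each, and a gene was called when it was past 2-fold. Because division defined the contrast, a higher level of cycle genes in it is no finding, and the counts only describe which steps were read. Of all genes tested, 4.86% of 8073 were higher and 0.78% lower in mouse cells. The same shares were 3.4% and 1.29% of 7735 in rat cells of the chimera, and 9.56% and 4.72% of 8088 in the SD rat, where few cells gave wide intervals. The median log2 ratio of all genes was 0.11, 0.05 and 0.13.

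Of the lists with genes the rule did not use, mitosis genes had the highest medians. Of those tested, 45 of 47 were called higher in mouse cells (median log2 ratio 2.95), 40 of 41 in rat cells of the chimera (2.70) and 34 of 35 in the SD rat (2.32). Birc5, a subunit of the chromosomal passenger complex, was at 269 against 2.57 CPM in mouse cells, 164 against 2.07 in rat cells and 76.4 against 1.49 in the SD rat. Prc1, which bundles the microtubules of the dividing cell's midzone, was at 298 against 4.77, 306 against 5.17 and 253 against 4.68 CPM. Both were found in few SD rat cells, 4 of 16 for Birc5 and 9 of 16 for Prc1, and 1 cell held 53.8% and 55.8% of their UMIs.

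Replication genes were higher by less. Of origin licensing genes, 10 of 13 were called higher in mouse cells (median 1.52), 7 of 12 in rat cells (1.16) and 5 of 8 in the SD rat (1.31). Cdc45, left out of the replication sum, is still among these tested genes. It was at 483 against 552 CPM in rat cells of the chimera and 1035 against 1038 CPM in the SD rat. Gmnn, which blocks a further round of licensing, was at 65.9 against 8.44, 79.5 against 16.3 and 82.3 against 17.7 CPM. Mcm7, a helicase subunit, was at 82.5 against 10.5 CPM in mouse cells and 27.0 against 9.57 in rat cells of the chimera, and had no UMI in the SD rat cycling cells, where 3 UMIs would be 17.6 CPM. Of DNA synthesis genes, 22 of 24 (median 1.66), 16 of 20 (1.58) and 9 of 17 (1.01) were called higher. Rrm2 and Tk1, enzymes of nucleotide supply, had log2 ratios of 3.29 and 3.11 in mouse cells, 3.36 and 2.19 in rat cells and 2.27 and 2.09 in the SD rat. Pcna, the sliding clamp of DNA polymerase, was also well detected in non-cycling cells and had smaller ratios of 1.11, 0.91 and 0.16.

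Chromatin and tubulin genes of dividing cells were called higher in 15 of 15 (median 1.95), 11 of 14 (1.35) and 10 of 13 (1.40). H2az1, a histone variant, was at 1629 against 329 CPM in mouse cells, 408 against 185 in rat cells and 447 against 245 in the SD rat. Stmn1, which destabilises microtubules, was at 969 against 38.3, 1586 against 283 and 1211 against 294 CPM. Hmgb1 could not be read in rat cells, since the SD rat had 0 UMIs in cycling cells and 0.213 CPM in non-cycling ones, and 134 of the 135 Hmgb1 UMIs of rat cycling cells in the chimera were on the mouse gene, and the gene counted among the 14.

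Cyclins and other activators were mixed. Of those tested, 11 of 19 were called higher in mouse cells, 5 of 13 in rat cells and 6 of 13 in the SD rat, and 0 were called lower. Ccna2 was at 112 against 0.550 CPM in mouse cells (log2 ratio 3.53), 40.5 against 1.03 in rat cells (2.19) and 11.8 against 0.851 in the SD rat, where 1 cell held all of it. Cks2, a partner of Cdk1, was measured only in mouse cells and had a ratio of 3.32. The D cyclins differed little, with log2 ratios for Ccnd1 of -0.05 (-0.21 to 0.12), 0.39 (0.11 to 0.67) and 0.23 (-0.47 to 0.88). Ccnd2 had -0.47 (-0.70 to -0.24), 0.39 (0.03 to 0.74) and -0.66 (-1.68 to 0.36). Ccnd1 was thus already at 305, 134 and 83.6 CPM in non-cycling endothelial cells.

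Cell cycle inhibitors held the genes that were lower as well as higher. In mouse cells 3 of 13 tested were called higher and 1 lower, in rat cells 2 of 12 and 0, and in the SD rat 2 of 13 and 0. Cdkn2c, an inhibitor of Cdk4 and Cdk6, was higher, with ratios of 2.64 (2.33 to 2.92), 2.39 (1.96 to 2.73) and 1.25 (0.20 to 2.23). Rbl1, a relative of the retinoblastoma protein, had 1.57, 0.77 (below the level filter) and 0.85. Cdkn1c, an inhibitor that holds cells out of the cycle, was at 70.0 against 206 CPM in mouse cells (-1.43, -1.72 to -1.14) and 37.5 against 76.5 CPM in rat cells (-0.86, -1.36 to -0.38). In the SD rat it was at 176 against 75.9 CPM (1.12), with 53.3% of its UMIs in 1 cell. At 2000 UMIs a cell, Cdkn1c was found in 3 of 78 mouse cycling cells (3.85%, 0.80 to 10.8) and 220 of 722 non-cycling cells (30.5%, 27.1 to 34.0), with 4 cycling and 105 non-cycling cells too shallow. At own depth these shares were 41.5% and 47.0%. In rat cells of the chimera the thinned shares were 3 of 48 and 50 of 550 (6.25% and 9.09%) and their intervals overlapped. Cdkn1a and Btg1, which slow the cycle, were detected throughout, with ratios of 0.20, -0.11 and -0.97 for Cdkn1a and -0.48, -0.38 and -0.63 for Btg1.

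Endothelial genes stood near or below their levels in non-cycling cells. The 7 rule genes, given as a description, had log2 ratios from -0.65 to 0.09 in mouse cells, -0.53 to -0.02 in rat cells and -1.13 to -0.30 in the SD rat, with Flt1, a receptor for VEGF, below 0 in each (-0.65, -0.53 and -0.86). Of the 20 vascular identity genes, 0 were called higher in any population, and 2 of 20, 1 of 19 and 5 of 19 were called lower, with medians of -0.06, -0.22 and -0.68. Podxl and Plvap, the first a sialoprotein of the lumen and the second part of the diaphragms of fenestrae and caveolae, were the lower pair in mouse cells at 106 against 237 and 80.9 against 185 CPM. Sox7, an endothelial transcription factor, was at 189 against 138 CPM in mouse cells (0.43, 0.22 to 0.63). In rat cells Sox7 was at 64.5 against 53.5 CPM, in the SD rat it was at 35.3 against 67.2 CPM, and Plvap in rat cells was at 146 against 312 CPM, with 82.5% of the Plvap UMIs in 1 cell.

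**Figure D4:**
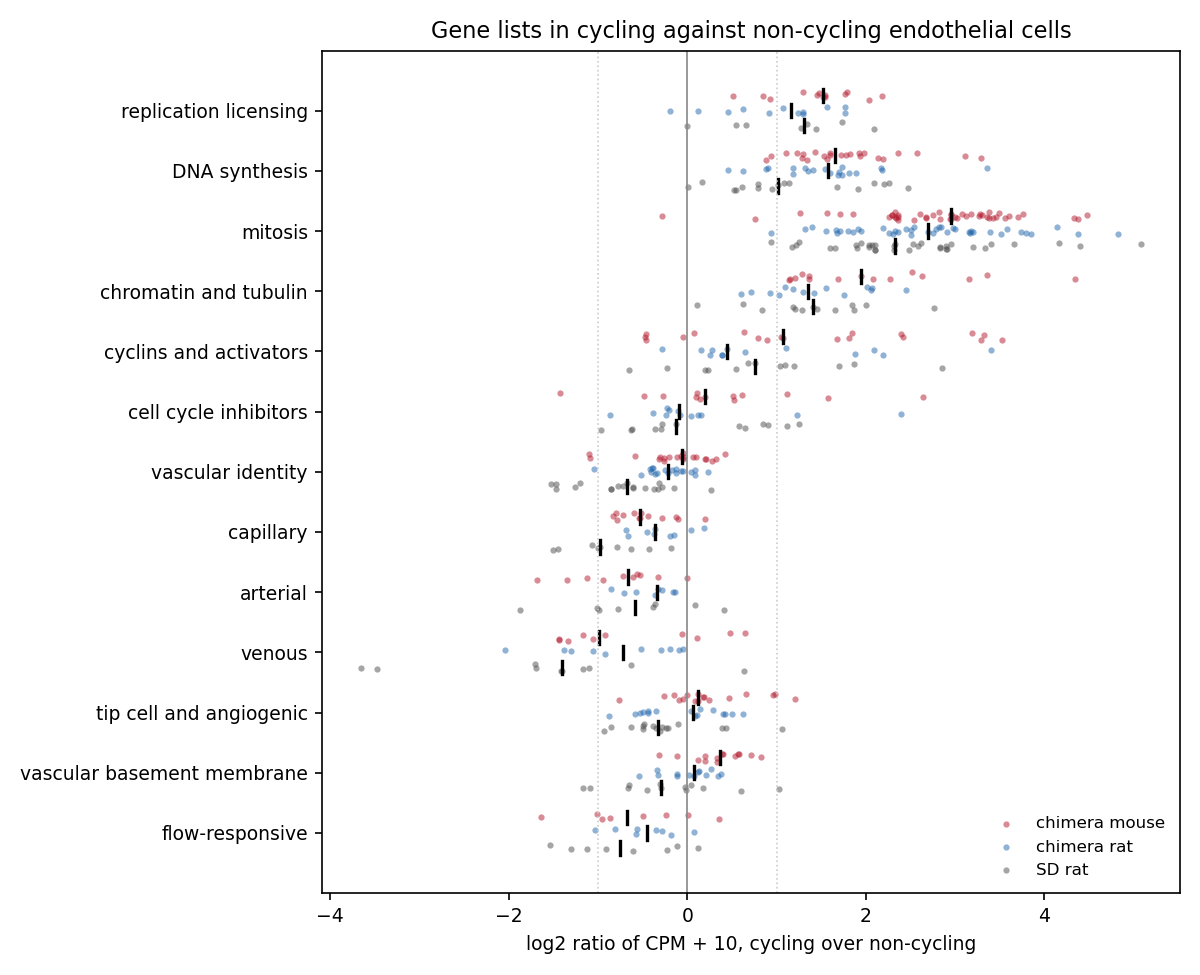
Log2 ratio of CPM + 10 in cycling over non-cycling endothelial cells (x axis) for each tested gene of 13 lists (y axis) in chimera mouse, chimera rat and SD rat cells; bars are list medians and dotted lines mark 2-fold. Of these lists, mitosis genes had the highest medians (2.95, 2.70 and 2.32) and venous genes the lowest (-0.99, -0.72 and -1.41).

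Capillary genes stood slightly lower in cycling cells. The median log2 ratio was -0.53 over 13 genes in mouse cells, -0.37 over 9 in rat cells and -0.98 over 9 in the SD rat, and 0, 0 and 4 were called lower. Intervals lay below 0 for 11 of 13 genes in mouse cells, 5 of 9 in rat cells and 6 of 9 in the SD rat, beside 10.6%, 9.3% and 6.61% of all genes. Fabp4, a fatty acid carrier of muscle capillaries, was at 11438 against 15522 CPM in mouse cells, 7748 against 8557 in rat cells and 3345 against 7039 in the SD rat. Cd300lg, a capillary receptor, was at 179 against 318, 24.0 against 43.7 and 11.8 against 27.4 CPM. Fabp5, measured only in mouse cells, was at 1240 against 1076 CPM. After thinning to 2000 UMIs, at least 2 capillary genes were found in 77 of 78 mouse cycling cells (98.7%) and 98.8% of non-cycling cells, in 44 of 48 (91.7%) and 89.8% in rat cells and in 12 of 15 (80%) and 87.3% in the SD rat. Thinning left out 4, 0 and 1 cycling and 105, 106 and 369 non-cycling cells. Capillary RNA was thus found in nearly all cells of both groups.

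Arterial genes were called lower in 3 of 10 (median -0.66), 0 of 8 (-0.34) and 2 of 8 (-0.58), and 0 were called higher. Cxcl12, a chemokine of arterial and capillary endothelium, was at 526 against 1350 CPM in mouse cells (-1.34, -1.46 to -1.23), 525 against 954 in rat cells (-0.85, -1.01 to -0.69) and 453 against 920 in the SD rat (-1.01, -1.34 to -0.69). After thinning, Cxcl12 was found in 45 of 78 cycling and 505 of 722 non-cycling mouse cells (57.7% and 69.9%), in 24 of 48 and 351 of 550 rat cells (50.0% and 63.8%) and in 7 of 15 and 480 of 810 SD rat cells (46.7% and 59.3%). Cxcl12 was thus lower in each population on both measures, with intervals of the thinned shares that overlapped in each. At least 2 arterial genes were found in 56.4% against 72.2% of thinned mouse cells, 58.3% against 65.3% of rat cells and 60.0% against 67.3% of SD rat cells.

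Of the endothelial lists, venous genes had the lowest medians, with 5 of 10 called lower in mouse cells (-0.99), 4 of 10 in rat cells (-0.72) and 8 of 10 in the SD rat (-1.41). Selp, which encodes the leukocyte receptor P-selectin, was at 216 against 602, 102 against 282 and 5.88 against 189 CPM. Vwf, the clotting factor carrier, was at 48.3 against 148, 60.0 against 136 and 0 against 101 CPM. Selp was found in 9 of 82 mouse cells with 50.6% of its UMIs in 1 cell, and 0 Vwf UMIs in the SD rat allow up to 17.6 CPM by the limit of 3 counts. After thinning, Selp was found in 6 of 78 and 70 of 722 mouse cells (7.69% and 9.70%, with overlapping intervals), and at least 2 venous genes in 24.4% of cycling and 19.8% of non-cycling mouse cells, 29.2% and 27.5% in rat cells and 6.67% and 20.4% in the SD rat. Icam1, a leukocyte receptor, was at 393 against 280 CPM in mouse cells (0.48, 0.33 to 0.62) and 138 against 201 CPM in rat cells (-0.51, -0.82 to -0.22), where the sign turned with each cell weighted equally (0.35). In the SD rat Icam1 was at 41.1 against 126 CPM.

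Genes of tip cells and angiogenesis were spread around 0, with 1 of 17, 0 of 16 and 1 of 16 called higher, 0 called lower and medians of 0.13, 0.07 and -0.32. Apln, a secreted peptide of sprouting endothelium, was measured only in mouse cells and was at 95 against 35.4 CPM (1.21, 0.91 to 1.50). At 2000 UMIs a cell, 11 of 78 cycling cells held it (14.1%, 7.26 to 23.8) and 31 of 722 non-cycling cells did (4.29%, 2.94 to 6.04), beside 40.2% and 10.4% at own depth. Esm1, a classical tip cell gene, was lower in both species of the chimera, at 37.5 against 70.6 CPM in mouse cells (-0.76, -1.13 to -0.40) and 85.6 against 166 CPM in rat cells (-0.88, -1.25 to -0.52). A single rat cell held 59.6% of the Esm1 UMIs. In the SD rat Esm1 was at 141 against 182 CPM (-0.34, -0.94 to 0.21). Nrp1, a co-receptor for VEGF, had -0.26, -0.49 and -0.86. Apln and Esm1, both used as tip cell genes, thus had ratios of opposite sign in mouse cells.

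Vascular basement membrane genes differed among the populations. In mouse cells 12 of 14 were higher, 11 with an interval above 0 (beside 25.6% of all genes), and the median was 0.36. In rat cells the median was 0.08 over 13 genes with 2 intervals above 0, beside 16.8% of all genes, and in the SD rat -0.29 with 2 above 0, beside 14.1%. Past 2-fold stood 0, 0 and 1 higher and 0, 0 and 2 lower. Col15a1, a collagen beneath endothelium, was at 316 against 174 CPM in mouse cells (0.83, 0.66 to 0.99), 299 against 256 in rat cells (0.21, with an interval that held 0) and 388 against 375 in the SD rat. Col18a1, whose end fragment is endostatin, was at 66.7 against 36.9, 105 against 80.9 and 194 against 90.4 CPM.

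Flow-responsive genes were lower in their medians (-0.68, -0.45 and -0.76), with 2 of 8, 1 of 8 and 3 of 8 called. Edn1, the vasoconstrictor endothelin, was at 25.8 against 101 CPM in mouse cells and 4.50 against 19.7 CPM in rat cells, and at 23.5 against 26.4 CPM in the SD rat. Klf2, a transcription factor induced by shear, was at 991 against 1399 CPM in mouse cells (-0.49, -0.58 to -0.41), and in rat cells it was at 1087 against 1029 CPM (0.08, -0.04 to 0.19), and in the SD rat at 600 against 551 CPM. Genes of the immediate early stress response, which digestion can induce, had medians of -0.03, -0.25 and -0.23 with 0 called in any population. Fosb, for instance, was at 171 against 273, 510 against 797 and 741 against 869 CPM. Glycolysis genes had medians of 0.06, 0.06 and -0.34, with 0, 0 and 1 called higher and 0, 0 and 2 lower. Pkm, the pyruvate kinase of growing cells, was at 248 against 197 CPM in mouse cells (0.31, 0.13 to 0.49), with ratios of 0.03 in rat cells and -0.71 in the SD rat.

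Antigen presentation and interferon genes were called lower in 0 of 14 mouse genes, 3 of 11 rat genes and 6 of 11 SD rat genes, with medians of -0.22, -0.34 and -1.19. The 3 in rat cells were Cd74, RT1-Da and RT1-Ba of MHC class II, at 10.5 against 134, 7.50 against 98.0 and 1.50 against 36.5 CPM, and reads of such near-identical RT1 genes may have been split between copies. Myeloid genes, of cells that also carry class II, summed to 27.0 against 124 CPM in rat cells, 11.8 against 115 CPM in the SD rat and 27.5 against 34.8 CPM in mouse cells, and their part in these values was not tested. B2m, the partner chain of MHC class I, was at 3389 against 3438 CPM in mouse cells, 5331 against 4478 in rat cells and 2663 against 4074 in the SD rat. Tap1, a peptide transporter for class I, was at 158 against 119 (0.38), 84.1 against 49.4 (0.66) and 88.2 against 74.4 CPM (0.22, -0.52 to 0.90).

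Markers of other cell types were counted in full, because a barcode with 2 cells could pass the rule. Myofibre genes were lower, with 6 of 7, 4 of 7 and 5 of 7 called and medians of -1.07, -1.17 and -1.47, and their share of a cell's UMIs ran from 0.0341 to 2.87% (median 0.254%) in mouse cycling cells, 0.0636 to 6.22% (0.275%) in rat cells and 0.246 to 3.53% (0.725%) in SD rat cells. Fibroblast genes were lower in the chimera (medians -0.62 and -0.58) and higher in the SD rat (0.98, with 3 of 7 called higher). That SD rat value rested on 1 barcode of 22962 UMIs with 1008 fibroblast UMIs (4.39%), which held 86.7% of the Dcn and 85.7% of the Col3a1 UMIs. Without the barcode richest in each, the SD rat log2 ratios were -1.95 for Dcn and -1.59 for Col3a1. In rat cells of the chimera 1 barcode likewise held 86.6% of the Dcn UMIs.

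Myogenic genes were at 36.7, 194 and 576 CPM in sum in cycling cells and 56.7, 170 and 179 CPM in non-cycling cells, and of the cells 23 of 82, 27 of 48 and 11 of 16 held at least 1 UMI. Myod1, a defining gene of muscle precursors, had 0 UMIs in mouse cells and 5 in rat cells of the chimera, and 36 in 3 SD rat cells, 30 of them in 1. Counting a narrower set of defining genes of both types, 26 of 82 mouse cycling cells (31.7%, 21.9 to 42.9) held at least 1 UMI, beside 37.8% of non-cycling cells. In rat cells of the chimera the shares were 24 of 48 (50.0%, 35.2 to 64.8) and 40.7%, and in the SD rat 12 of 16 (75.0%, 47.6 to 92.7) and 44.0%. Cycling barcodes were deeper, and the part of a second cell in these values was not tested. Without every barcode that held such a UMI, the cycling share was 56 of 633 in mouse cells (8.85%), 24 of 448 in rat cells (5.36%) and 4 of 694 in the SD rat (0.576%).

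The other lists are given as sums over their genes, and erythroid genes had the highest of these sums in both species of the chimera. Pericyte genes summed to 136, 437 and 106 CPM in cycling cells, with medians of 0.65 over 3 genes, 0.08 over 5 and -0.85 over 5. In mouse cells, 0 of the 103 Rgs5 UMIs, 0 of the 19 Kcnj8 UMIs and 2 of the 28 Abcc9 UMIs were on mouse genes. Smooth muscle genes summed to 90.0, 494 and 217 CPM, with medians of -0.62, -0.45 and -0.72. Myeloid genes summed to 27.5, 27.0 and 11.8 CPM, and 2, 4 and 6 of 7 were at 0. Lymphoid genes summed to 1.67, 24.0 and 11.8 CPM and glial genes to 7.50, 19.5 and 64.7 CPM. Lymphatic genes, with Prox1 barred by the rule, summed to 43.3, 33.0 and 170 CPM. Erythroid genes summed to 8987, 1405 and 147 CPM, against 10634, 8669 and 7111 CPM in non-cycling cells, and 1 mouse cycling cell had 60.0% of its UMIs on them.

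Mouse and rat cells of the chimera were set side by side by their cycling to non-cycling ratios, which come from 1 library. Of 6376 genes tested in both, 2.09% had a mouse ratio at least 2-fold above the rat ratio and 0.549% a rat ratio at least 2-fold above the mouse ratio. Among cycle genes Stmn1 had the higher ratio in mouse cells (4.34 against 2.45, difference 1.89, 1.68 to 2.11). Pttg1, or securin, which guards sister chromatids, had 0.76 against 3.74 (-2.98, -3.41 to -2.52). Ube2s, which extends ubiquitin chains in mitosis, had -0.29 against 1.40 (-1.69, -2.19 to -1.18). For all 3 the non-cycling levels differed between the species, at 38.3 and 283 CPM for Stmn1, 34.7 and 4.65 CPM for Pttg1 and 28.6 and 89.7 CPM for Ube2s. SD rat cells had ratios of 2.01, 3.66 and 1.21 for these genes, nearer to the chimera's rat cells for each. Species, reference and origin from iPSCs cannot be told apart here.

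Outside the lists, and among genes that, in the species with the higher ratio, were found in at least 10% of cells with no cell holding over 20% of the UMIs, the largest such differences toward mouse were in Cenpp, Dpysl3, Otud4, Ccn2 and Nrm. Cenpp, a centromere protein, was at 127 against 13.6 CPM in mouse cells and 36.0 against 27.7 CPM in rat cells (difference 2.25, 1.66 to 2.84). Nrm, of the nuclear envelope, was at 44.2 against 6.60 and 78.0 against 70.9 CPM (1.58, 1.04 to 2.11). Dpysl3 and Otud4 differed by 1.81 and 1.77, and Ccn2, a matrix protein, by 1.64, with 30.0% of the Otud4 and 42.9% of the Ccn2 UMIs of rat cells in 1 cell. Toward rat were Hdac9, Ada, Spr, Fosl1 and Hsd17b11. Hdac9, a histone deacetylase, was at 85.0 against 214 CPM in mouse cells and 144 against 115 CPM in rat cells (-1.54, -1.94 to -1.13). Fosl1, an AP-1 factor, was at 19.2 against 23.8 and 67.5 against 30.5 CPM (-1.15, -1.76 to -0.52). Ada, which breaks down adenosine, had -1.30, and Spr and Hsd17b11 had -1.23 and -1.14. The SD rat ratios were 1.73 for Fosl1 (50.0% of its UMIs in 1 cell), -0.47 for Hdac9, -1.06 for Ada, 0.05 for Spr and -1.0 for Hsd17b11, and for the first set -0.45 for Cenpp, -0.01 for Dpysl3, -0.41 for Otud4, -1.46 for Ccn2 and -0.69 for Nrm. Only Fosl1 and Ccn2 of these 10 had an SD rat interval without 0.

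Of 6031 genes tested in all 3 populations, 111 were called higher and 13 lower in each. Outside the lists, genes that were higher in every population were led by Arhgap11a, at 46.7 against 2.20 CPM in mouse cells, 60.0 against 1.55 in rat cells and 64.7 against 2.76 in the SD rat. Kntc1, of the kinetochore, was at 37.5 against 0.367, 21.0 against 0.517 and 29.4 against 0 CPM. Cit, the citron kinase of the cleavage furrow, was at 69.2 against 10.5, 18.0 against 2.33 and 35.3 against 2.98 CPM. Chromatin proteins followed. Anp32b, a histone chaperone, was at 287 against 112, 276 against 113 and 370 against 111 CPM. The ratios were 0.86, 0.96 and 1.66 for Psip1, 0.94, 0.88 and 0.81 for Cbx3, 1.14, 0.71 and 1.16 for Trim28 and 0.61, 0.68 and 0.89 for Nsmce2.

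The 8 genes outside the lists that led those lower in every population included 4 of muscle fibres and 2 of matrix. Myoz1, Myl1, Tnni2 and Pgam2, genes of fast muscle fibres, had ratios from -1.30 to -0.93 in mouse cells, -1.44 to -1.12 in rat cells and -2.01 to -1.44 in the SD rat. Mgp, a matrix inhibitor of calcification, was at 104 against 430, 509 against 1045 and 317 against 1494 CPM. Eln, or elastin, was at 63.4 against 131, 135 against 278 and 182 against 359 CPM. At own depth a larger share of the deeper cycling cells held each of these matrix genes. For Mgp it was 50.0% against 45.3%, 64.6% against 49.4% and 87.5% against 62.8%. For Eln it was 28.0% against 21.6%, 47.9% against 24.2% and 43.8% against 25.4%. A single cycling cell held 46.3% of the Mgp UMIs in rat cells of the chimera and 48.4% of the Eln UMIs in the SD rat. Fgl2 had -0.88, -2.02 and -1.44, and Slfn5, an interferon-inducible gene, -1.0, -1.15 and -0.83.

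Rat cycling cells of the chimera were last compared with those of the SD rat. Of 8146 genes, 5.84% were at least 2-fold higher in the chimera and 12.1% lower, while among non-cycling endothelial cells of the same libraries the shares were 0.602% and 1.12%. The 10 CPM filter for these genes used the levels of cycling cells alone. The shares of cycling and non-cycling cells are thus not on an equal footing. The cycling groups held 666259 and 170117 UMIs, and the non-cycling groups 3867025 and 4702274. Medians of all genes were -0.16 for cycling and -0.10 for non-cycling cells, as log2 of chimera over SD rat. Capillary genes were higher in the chimera with a median of 0.80 in cycling cells (2 of 9 called higher) and 0.12 in non-cycling cells, and venous genes with 1.53 (7 of 9) and 0.55. Mitosis and DNA synthesis genes had medians of 0.43 (7 of 43) and 0.48 (6 of 21), and 0.05 and 0.04 in non-cycling cells. Fibroblast genes were lower in the chimera (-1.88, 5 of 7 called lower, and -0.37), as were myogenic genes (-1.39, 2 of 4, and -0.14). Myofibre genes were lower to a like degree in cycling and non-cycling cells (-1.16 in each).

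Single genes of these lists are given as levels. Fabp4 was at 7748 CPM in rat cycling cells of the chimera and 3345 CPM in the SD rat, while in non-cycling cells it was at 8557 and 7039 CPM. Selp was at 102 and 5.88 CPM in cycling and 282 and 189 CPM in non-cycling cells, with the SD rat value from 1 UMI. Ube2c was at 308 and 112 CPM and Top2a at 230 and 300 CPM. The differences between the libraries were larger in cycling than in non-cycling cells for each list named here but myofibre genes. Other lists were mixed. Medians in cycling and non-cycling cells were -0.12 and -0.35 for tip cell and angiogenic genes and -0.37 and -0.48 for basement membrane genes. They were -0.14 and -0.12 for arterial genes and 0.60 and 0.13 for antigen presentation and interferon genes. Non-cycling cells were chosen for lacking the 5 cycle genes, so their small differences in mitosis and DNA synthesis genes say little. With 16 SD rat cells, the 1 barcode rich in fibroblast RNA and the 1 rich in Myod1 weighed on the fibroblast and myogenic sums.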

How the data were processed

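The 10x Genomics 3' v3.1 libraries of 1 chimera and 1 SD rat were analysed. As deposited, each table holds whole-number counts of UMIs, not normalized, which the authors obtained by aligning reads to the rat and mouse builds mRatBN7.2 and GRCm39. Cell Ranger 7.1.0 and these builds are named in the submitters' processing notes. The chimera was counted on 23373 rat and 25906 mouse genes together, the SD rat on the rat genes alone. Counts of a symbol were added over both species. E2f1, Cks2, Hmgb2, Cldn5, Fabp5, Apln and some other symbols have no rat row and got no rat value.

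Barcodes with at least 500 UMIs, 200 genes and at most 20% mitochondrial UMIs were kept (12174 and 8980). UMIs were summed over the cells of a group and compared as log2 of CPM + 10 where the mean was at least 10 CPM, with an exact 95% binomial interval. A difference between mouse and rat ratios combined both intervals. Shares have Clopper-Pearson and levels exact Poisson intervals. All cover counting error only, and cells are not replicates of a condition. Intervals of levels and ratios treat summed UMIs as independent and leave out variation between cells. For genes at 0 the limit is 3 counts. Thinning drew 2000 UMIs without replacement (seed 1). Doublets were not removed. Scrublet in scanpy 1.11.5 marked 323 and 165 barcodes, 1 of them a cycling endothelial cell. Python 3.11.15, numpy 2.4.6 and scipy 1.17.1 were used. The ratio was tried on simulated Poisson counts without variation between cells, so that trial does not cover such variation.

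The cells and the gene lists were chosen with earlier results of these data known. Named were the rule's genes, the 2 highest and 2 lowest ratios and the highest level in mouse cells of each list, and outside the lists the 8 highest and 8 lowest ratios common to the populations and the 5 largest differences between mouse and rat each way, with limits on how much 1 cell held. Any other gene named was chosen after its values were seen, as was leaving Cdc45 out of the replication sum.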

Additional observations from a re-analysis of the deposited data

How the results depend on the processing

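No paired analysis was possible because each animal gave 1 library, and for the same reason no replicate was left out. Sparse cells set the limit: 16 SD rat cells held 170117 UMIs. Of 377 ratios of named genes, 289 had an interval without 0, and 19 of these turned sign under at least 1 alternative. The causes were not tested.

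The cycling share of mouse cells (8.09%) was 5.52% with 3 cycle genes, 5.70% thinned and 5.33% with the cycle genes alone thinned. For rat cells of the chimera (6.29%) it was 15.3% with species at 90%, 4.45% thinned and 4.12% with the cycle genes alone thinned. For the SD rat (1.28%) it was 0.558% with 3 cycle genes, 0.689% with the cycle genes alone thinned and 0.576% without barcodes holding myogenic or fibroblast UMIs. The alternative with cycle genes alone thinned and the last one were chosen after seeing the data. With species at 90%, the mouse share was 89.2% and the endothelial share of rat cycling barcodes 5.17% (15.2%). The endothelial share of SD rat cycling barcodes was 5.07% with 3 cycle genes (8.89%).

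Adding 1 CPM in place of 10, genes past 2-fold numbered 793 in mouse cells (455), 729 in rat cells (363) and 2074 in the SD rat (1155). Genes that differed between mouse and rat numbered 535 (168), and between chimera and SD rat 2406 (1462). Weighting cells equally gave 607 in rat cells and 428 between mouse and rat, no filter gave 351 between them, and 3 cycle genes gave 2408 in the SD rat.

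With cells weighted equally, mouse cells had log2 ratios of -0.022 for Abcc9, 0.36 for Hba-a1, 0.16 for Hba-a2, 0.62 for Hbb-bs, 0.54 for Hbb-bt, -0.12 for Kcnj8, -0.10 for Piezo1 and -0.0473 for Rgs5. Rat cells had 0.23 for Acta2, 0.0844 for Col1a1, 0.35 for Icam1 and 0.0267 for Lyz2, and the SD rat -0.0417 for Col1a1 and 0.0732 for Plvap. On mouse genes alone Abcc9 had -0.26, Kcnj8 -0.0547 and Rgs5 -0.13. Without the cell richest in the gene, Abcc9 had -0.48 in mouse cells, and the SD rat had -1.0 for Col1a1, -1.59 for Col3a1, -1.95 for Dcn and -0.27 for Dpt. From 5000 UMIs upward the SD rat had 0.0665 for Mb and 0.0667 for Mecom.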
